A study of Mus musculus with 12 samples.

Results

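Lymphocytes are placed within and leave the spleen under the control of a small set of receptors and their regulators, and 8 of these genes are described here. They are the sphingosine-1-phosphate (S1P) receptors S1pr1, S1pr2 and S1pr4, the receptors Ccr7 and Gpr183, the selectin ligand Selplg, and the regulators Cd69 and Klf2. They were found by gene symbol in the deposited expression tables, which hold 23247 features in all (single genes, or overlapping genes reported together). Of the 8 genes, 7 had an entry of their own. S1pr4 shared its entry with Ncln, a neighbouring gene, in all 12 libraries, so its level cannot be separated from that of Ncln.

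RNA was sequenced from spleen CD4 T cells of C57BL/6 mice, with 3 libraries in each of 4 groups. Cells with surface CXCR5 and PD-1 are T follicular helper (TFH) cells, which help B cells in germinal centres, and CD4 T cells lacking both markers are called non-TFH cells. All mice carried Ets1 flox/flox alleles. Those called WT carried no Cre, and those called KO carried CD4-cre, a transgene that acts in T cells. The sources used here do not give the age of the mice, any immunization, or whether replicates came from separate mice. P-values therefore measure the spread between libraries, which may be technical. The question was how loss of Ets1, an ETS family transcription factor of lymphocytes, changes RNA levels in TFH and in other CD4 T cells.

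S1P is abundant in blood and lymph and scarce inside lymphoid tissue. S1PR1 draws T cells along this gradient out of the tissue, and CD69, a surface protein induced by activation, binds S1PR1 and has it taken into the cell. KLF2 is a transcription factor that activates the S1pr1 gene. CCR7 brings T cells to the T zone through the chemokines CCL19 and CCL21. GPR183 (EBI2) responds to oxysterols and guides cells to the outer follicle and the border of the T zone, and S1PR2 holds TFH and germinal centre B cells inside the follicle centre. PSGL-1, the product of Selplg, binds selectins and chemokines.

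Levels are FPKM (fragments mapped to a gene relative to its transcript length and to the library's mapped fragments) scaled between libraries. Changes are differences of log2(scaled FPKM + 1) with the standard error (SE) of a limma fit across 11112 features, and a change passed at an adjusted p under 0.05. This scale understates changes of genes at low levels. The Ets1 transcript stood at 410, 410 and 401 in WT non-TFH libraries and at 413, 408 and 379 in KO non-TFH libraries. It stood at 170, 203 and 214 in WT TFH libraries and at 223, 270 and 265 in KO TFH libraries. It was thus not lower in the libraries labelled KO, but the entry spans the whole gene, with exons outside a floxed segment, and checks nothing about the deletion. Genotypes are given as labelled.

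Several measures moved with the groups. The Y-linked gene Ddx3y stood at 0 in all 3 KO TFH libraries, at 33.4, 2.21 and 5.26 in WT TFH libraries and at 40.3 to 68.0 in the 5 non-TFH libraries with a value. Xist, which is transcribed from the inactive X chromosome, stood at 14.8 to 23.2 in KO TFH libraries, at 0, 15.9 and 13.6 in WT TFH libraries, and at 19.6 in KO non-TFH replicate 1 against 0.0826 to 1.80 in the other 4 non-TFH libraries with a value. Sex was therefore partly aligned with genotype in TFH cells and with cell type in both WT and KO mice. For TFH against non-TFH cells of WT mice, Ddx3y, Kdm5d and Eif2s3y changed by -2.77, -2.65 and -2.29 log2. These 3 of 5 sex-linked genes passed and the other 2 did not, where 32.1% of all features were lower. In TFH against non-TFH cells of KO mice, 4 of the 5 were lower, where 33.6% of all features were. In KO against WT TFH cells, 4 of the 5 were lower too, where 15% of all features were. The part of sex in the differences between cell types was not tested. WT TFH replicates 2 and 3, whose Xist was near that of KO TFH libraries, held S1pr2 at 25.5 and 28.6 and Ccr7 at 84.1 and 76.3, against 89.9 to 107 and 18.8 to 21.5 in KO TFH libraries. Without WT TFH replicate 1, the library with Xist at 0, the changes of S1pr2 and Ccr7 with genotype in TFH cells were 1.86 and -1.92 log2. The WT TFH libraries that remain still held Ddx3y at 2.21 and 5.26, against 0 in KO TFH libraries. They are thus not matched for sex-linked RNA, and the part of sex in these changes was not tested. The summed level of 12 macrophage and monocyte markers was 1119 to 2012 in WT TFH, 213 to 269 in KO TFH, 15.1 to 24.6 in WT non-TFH and 33.4 to 45.5 in KO non-TFH libraries. The sum of 13 B cell markers was 92.7 to 95.4 in WT TFH and 53.4 to 61.2 in KO TFH libraries and at most 5.28 in non-TFH libraries. Of germinal centre B cell genes, Rgs13, Gcsam and Mybl1 were at or near 0 in every library, the highest value being 0.680. Fas, which activated T cells also express, stood at 31.4 to 67.7 in TFH and 17.5 to 33.8 in non-TFH libraries and was higher in TFH cells of WT mice (1.59 log2). The sort markers followed the gates, with Pdcd1, which encodes PD-1, at 316 to 705 in TFH and 1.39 to 1.64 in non-TFH libraries. In bulk samples, fewer cells of a type and less RNA per cell cannot be told apart.

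The promoters of 3 of the genes are shown because S1pr2 had the largest rise among the 8 in KO TFH cells, Gpr183 changed with genotype outside the TFH gate and holds a match to an ETS core, and Klf2 is the regulator in the set. Each is the 250 bases before the gene's start from RefSeq (GRCm38.p6), read on the gene's strand. Promoters were matched for 4 of the 8 genes. Capitals mark a match to a searched motif.
S1pr2, chr9:20976794-20977043, minus strand: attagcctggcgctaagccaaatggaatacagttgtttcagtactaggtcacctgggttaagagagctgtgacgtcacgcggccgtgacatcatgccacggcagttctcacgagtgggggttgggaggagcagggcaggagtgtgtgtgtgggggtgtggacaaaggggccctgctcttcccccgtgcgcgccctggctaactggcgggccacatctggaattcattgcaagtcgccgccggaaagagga
Gpr183, chr14:121965194-121965443, minus strand: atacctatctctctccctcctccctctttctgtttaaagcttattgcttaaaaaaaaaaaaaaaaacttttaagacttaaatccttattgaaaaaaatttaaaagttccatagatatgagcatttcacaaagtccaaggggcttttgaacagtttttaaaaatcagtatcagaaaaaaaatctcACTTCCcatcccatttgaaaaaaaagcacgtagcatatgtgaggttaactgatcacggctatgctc
Klf2, chr8:72318812-72319061, plus strand: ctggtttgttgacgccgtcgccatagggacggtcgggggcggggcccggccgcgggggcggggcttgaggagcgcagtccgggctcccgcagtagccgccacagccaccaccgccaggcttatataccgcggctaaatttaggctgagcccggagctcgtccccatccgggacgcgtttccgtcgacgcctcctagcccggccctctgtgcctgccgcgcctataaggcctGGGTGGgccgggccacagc
The motifs searched, on both strands, were the ETS core GGAAGT, the KLF core CCACCC and the FOXO core GTAAACA. The Gpr183 promoter held the ETS core on the strand opposite the gene, from position -66 to -61 before the start, as do 19.741% of 32851 RefSeq promoters (ETS core, any position). The Klf2 promoter held the KLF core, also on the opposite strand, from -19 to -14, and the S1pr4 promoter held it from -107 to -102, with 28.075% of promoters holding it. None of the 3 motifs was found in the S1pr2 window, and the FOXO core, which 3.166% of promoters hold, was in none of the 4. A match is a description of the letters and not a binding site.

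In TFH cells the KO libraries had more S1pr2 and less Ccr7, Klf2 and Selplg RNA than the WT libraries. Of the 8 genes, 1 rose, 3 fell and 4 did not pass, where 30.7% of all features tested passed (15.6% higher and 15% lower). The median change of the 8 genes was -0.22, against 0.04 over all features tested. In non-TFH cells S1pr1 and Cd69 rose, Gpr183 fell and 5 did not pass, where 20.3% of all features passed (11.8% higher and 8.56% lower). The median of the 8 was 0.17, against 0.03 over all features. Exact two-sided permutation tests over 3 against 3 libraries (3 against 2 for Selplg) cannot give a p below 0.1. Each gene named here as rising or falling with genotype reached that value. So did Ccr7 and Klf2 in non-TFH cells, which did not pass. The named genes were chosen by limma on the same libraries, so the exact tests add no support.

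**Figure D1:**
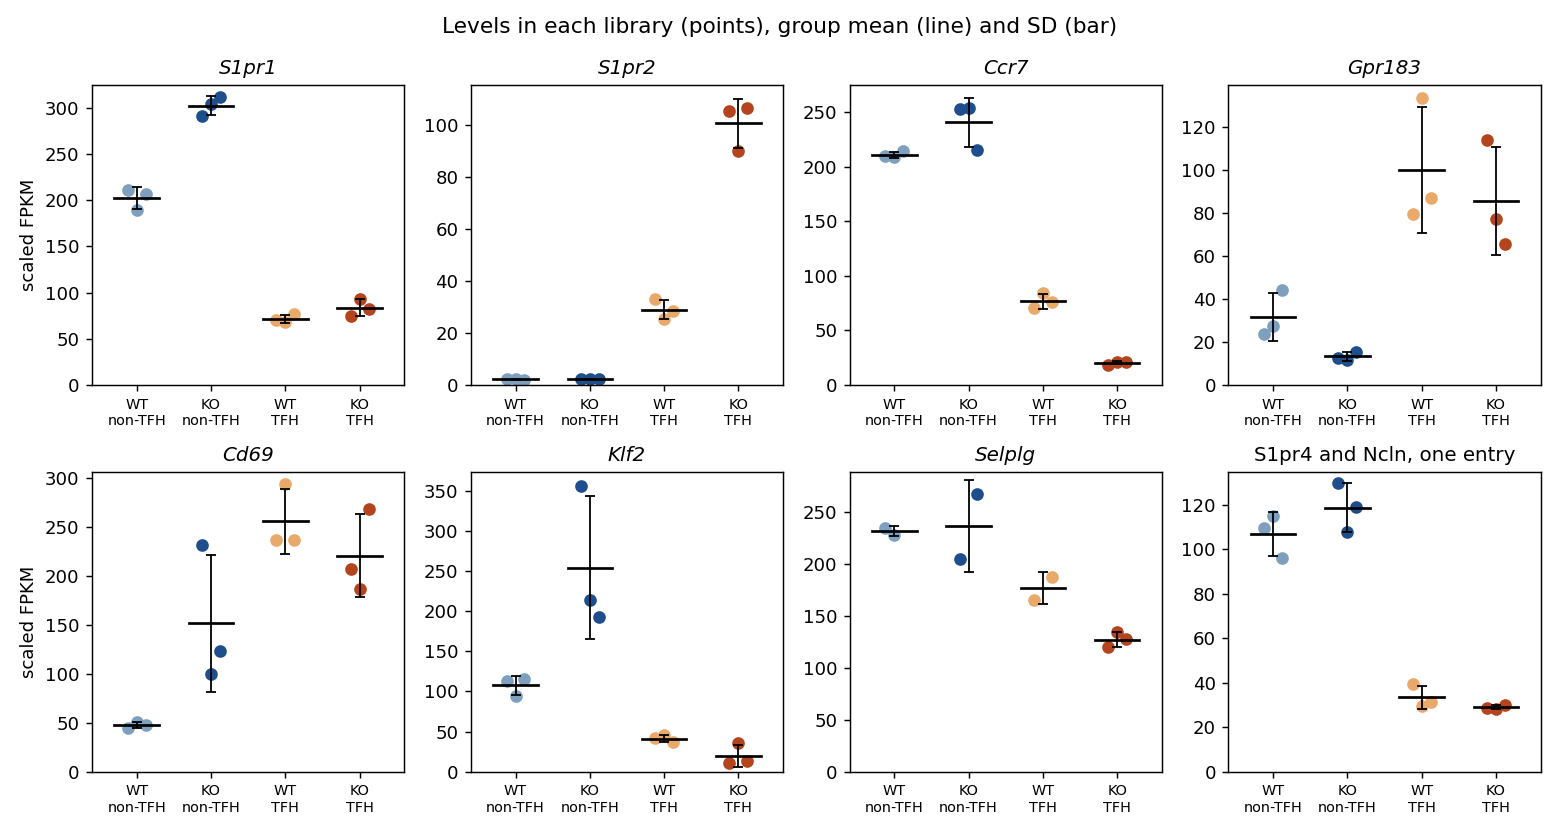
Scaled FPKM of each of the 8 genes (S1pr4 together with Ncln) in every library, by group, on linear axes from 0. Points are libraries, lines are group means and bars are SD. S1pr2 lies at 89.9 to 107 in KO TFH libraries, above the 25.5 to 33.0 of WT TFH libraries, and Ccr7 at 18.8 to 21.5 in KO TFH libraries, below the 70.4 to 84.1 of WT TFH libraries.

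S1pr2 (chromosome 9, 20965952 to 20976793, mm10), the receptor of follicle retention, stood at 33.0, 25.5 and 28.6 in WT TFH libraries and at 106, 89.9 and 107 in KO TFH libraries. Its entry ran further, to 20984648 in WT TFH replicate 1 and to 20982012 in KO TFH replicate 3. FPKM is per length, so these 2 values may rest on other transcript lengths. Every KO TFH library was above every WT TFH library. The means were 29.0 ± 3.82 and 101 ± 9.33 (SD, n = 3 per group), a 3.47-fold difference, with a log2 change of 1.76 ± 0.14 (limma adjusted p = 3.5e-06). In non-TFH cells it stood at 2.27, 2.42 and 1.79 in WT and at 2.20, 2.38 and 2.37 in KO libraries. These low values overlapped, and the change of 0.07 ± 0.14 did not pass (limma adjusted p = 0.79). The authors' 95% bounds on S1pr2 spanned as much as 119% of the value to either side in KO non-TFH replicate 1. The excess of TFH over non-TFH libraries was 3.24 ± 0.13 log2 in WT mice and 4.94 ± 0.13 log2 in KO mice. The change with genotype was larger in TFH than in non-TFH cells by 1.69 ± 0.19 (limma adjusted p = 0.00013).

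S1pr1 (chromosome 3, 115710433 to 115715055), the receptor of tissue exit, differed between cell types in the direction opposite to S1pr2. It stood at 211, 189 and 207 in WT non-TFH libraries and at 291, 304 and 311 in KO non-TFH libraries. These groups did not overlap, and the mean of 302 ± 10.1 in KO was 1.49 times the 202 ± 11.6 in WT (SD, n = 3 per group). The log2 change was 0.58 ± 0.09 (limma adjusted p = 0.00078). In TFH cells S1pr1 stood at 70.8, 67.6 and 76.3 in WT and at 74.9, 93.2 and 82.7 in KO libraries. These groups overlapped, and the change of 0.22 ± 0.09 did not pass (limma adjusted p = 0.095). It passed without KO TFH replicate 1, at 0.29 ± 0.09 (adjusted p = 0.034). TFH cells had less S1pr1, with changes against non-TFH cells of -1.49 ± 0.09 log2 in WT mice and -1.85 ± 0.09 log2 in KO mice and no overlap in either genotype. The difference between the genotype changes, -0.36 ± 0.13, did not pass (limma adjusted p = 0.081).

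Both receptors bind the same ligand, so their ratio within a library, which no scaling alters, is given too. S1pr1 exceeded S1pr2 by 78.0 to 116 times in WT non-TFH libraries and by 128 to 133 times in KO non-TFH libraries. In WT TFH libraries the ratio was 2.14, 2.66 and 2.67. In KO TFH libraries it was 0.710, 1.04 and 0.776, below every WT TFH library. S1pr2 thus stood above S1pr1 in KO TFH replicates 1 and 3 and slightly below it in replicate 2.

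**Figure D2:**
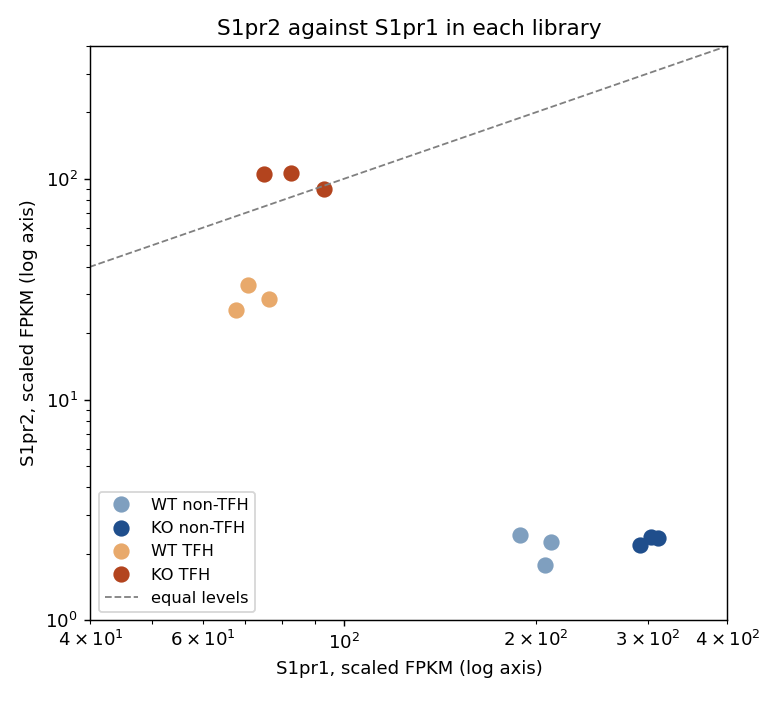
S1pr2 against S1pr1 in each of the 12 libraries, both as scaled FPKM on log axes, coloured by group. The dashed line marks equal levels: KO TFH libraries lie near it (ratios of S1pr1 to S1pr2 of 0.710 to 1.04), WT TFH libraries below it (2.14 to 2.67) and non-TFH libraries far below it.

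S1pr4 (chromosome 10, 81497745 to 81500137), an S1P receptor found mainly on leukocytes, was measured only together with Ncln, an endoplasmic reticulum protein gene. The joint entry stood at 110, 115 and 95.8 in WT non-TFH and at 130, 108 and 119 in KO non-TFH libraries. In TFH cells it stood at 39.4, 29.5 and 31.2 in WT and at 28.9, 28.1 and 30.1 in KO libraries. All TFH libraries were below all non-TFH libraries, and the changes were -1.65 ± 0.12 log2 in WT mice and -1.99 ± 0.12 log2 in KO mice. Genotype changes of -0.19 ± 0.12 in TFH and 0.15 ± 0.12 in non-TFH cells did not pass (limma adjusted p = 0.27 and 0.46). The remaining family members were low and were not tested. S1pr3 was at most 2.39 and S1pr5 at most 0.449 in any library.

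Ccr7 (chromosome 11, 99144199 to 99155077), the T zone receptor, stood at 70.4, 84.1 and 76.3 in WT TFH libraries and at 18.8, 21.5 and 21.2 in KO TFH libraries. No libraries of the groups overlapped. The mean fell from 76.9 ± 6.86 to 20.5 ± 1.5 (SD, n = 3 per group), with WT 3.75 times KO and a log2 change of -1.86 ± 0.10 (limma adjusted p = 2.2e-07). In non-TFH cells it stood at 210, 209 and 214 in WT and at 253, 254 and 215 in KO libraries. Every KO non-TFH library was above every WT non-TFH library, but the change of 0.19 ± 0.10 did not pass (limma adjusted p = 0.22). TFH cells had less Ccr7, with changes against non-TFH cells of -1.45 ± 0.10 log2 in WT mice and -3.49 ± 0.10 log2 in KO mice. The genotype change differed between cell types by -2.04 ± 0.14 (limma adjusted p = 3e-06).

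Gpr183 (chromosome 14, 121952331 to 121965193) lies within Ubac2, a gene on the other strand. The kit marks strand, but the sources used here do not give the strand setting of the counting, so reads of the pair may not be told apart. Gpr183 stood at 23.6, 27.2 and 44.1 in WT non-TFH libraries and at 12.7, 11.7 and 15.6 in KO non-TFH libraries. The groups did not overlap, and the mean fell from 31.6 ± 11 to 13.3 ± 2.02 (SD, n = 3 per group), with WT 2.38 times KO. The log2 change was -1.15 ± 0.27 (limma adjusted p = 0.01). In TFH cells Gpr183 stood at 79.3, 133 and 86.9 in WT and at 114, 77.3 and 65.7 in KO libraries. These groups overlapped widely, and the change of -0.22 ± 0.27 did not pass (limma adjusted p = 0.58). Gpr183 was higher in TFH cells, with changes of 1.64 ± 0.27 log2 in WT mice and 2.57 ± 0.27 log2 in KO mice. The difference between the genotype changes, 0.93 ± 0.38, did not pass (limma adjusted p = 0.13). Within libraries, Gpr183 was 1.13 to 1.59 times Ccr7 in WT TFH and 3.10 to 6.06 times Ccr7 in KO TFH libraries, against 0.0459 to 0.206 times in non-TFH libraries.

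Cd69 (chromosome 6, 129267324 to 129275375), the activation-induced partner of S1PR1, stood at 44.6, 51.3 and 47.3 in WT non-TFH and at 231, 99.7 and 123 in KO non-TFH libraries. KO replicate 1 was far above the other 2 KO libraries, and all 3 were above WT. The mean rose from 47.7 ± 3.38 to 151 ± 70.2 (SD, n = 3 per group), a 3.17-fold difference with a log2 change of 1.55 ± 0.26 (limma adjusted p = 0.0012). In TFH cells Cd69 stood at 237, 294 and 236 in WT and at 207, 187 and 268 in KO libraries. The groups overlapped, and the change of -0.22 ± 0.26 did not pass (limma adjusted p = 0.56). WT TFH cells exceeded WT non-TFH cells by 2.39 ± 0.26 log2 (limma adjusted p = 8.1e-06). In KO mice the TFH excess of 0.62 ± 0.26 did not pass (limma adjusted p = 0.052). It passed in 4 of 24 alternatives, whose adjusted p ran from 0.00039 to 0.81. These were no scaling (0.92, adjusted p = 0.0071), a block of genotype and replicate number (adjusted p = 0.042), and the omission of KO non-TFH replicate 1 (0.97 ± 0.16, adjusted p = 0.00039) or KO TFH replicate 2 (adjusted p = 0.048). The genotype change differed between cell types by -1.77 ± 0.36 (limma adjusted p = 0.0062). Within libraries, Cd69 was 3.10 to 4.34 times S1pr1 in WT TFH, 2.01 to 3.24 times in KO TFH and 0.211 to 0.794 times in non-TFH libraries.

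Klf2 (chromosome 8, 72319062 to 72321654), the activator of S1pr1, stood at 41.9, 45.3 and 36.5 in WT TFH and at 10.5, 35.7 and 14.0 in KO TFH libraries. KO replicate 2 lay just under the lowest WT library and well above the other 2 KO libraries. The mean fell from 41.2 ± 4.46 to 20.1 ± 13.7 (SD, n = 3 per group), which is a log2 change of -1.19 ± 0.38 (limma adjusted p = 0.037). That call was lost in 12 of 23 alternative settings, where the adjusted p ran from 0.00056 to 0.11, including the omission of any single WT library of either cell type, or of KO TFH replicate 1 or 3. In non-TFH cells Klf2 stood at 113, 94.5 and 115 in WT and at 356, 214 and 192 in KO libraries. Every KO library was above every WT library, yet the change of 1.18 ± 0.38 did not pass (limma adjusted p = 0.051). It passed in 8 of 23 alternatives (adjusted p 0.0026 to 0.17), including the omission of KO TFH replicate 1 (0.026) or 2 (0.0026). TFH cells had less Klf2, with changes against non-TFH cells of -1.36 ± 0.38 log2 in WT mice (limma adjusted p = 0.0085) and -3.73 ± 0.38 log2 in KO mice (8.3e-06). The genotype change differed between cell types by -2.37 ± 0.53 (limma adjusted p = 0.012). Klf2 was 0.478 to 0.670 times S1pr1 in WT TFH and 0.140 to 0.383 times in KO TFH libraries, and 0.500 to 1.22 times in non-TFH libraries.

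Both Cd69 and Klf2 respond quickly to stimulation of a cell, so 12 immediate early genes such as Fos and Junb are set beside them. The summed level of the 11 with a value in every library was 666, 525 and 659 in WT non-TFH and 2844, 1019 and 767 in KO non-TFH libraries. It was 2543, 2691 and 2256 in WT TFH and 756, 791 and 696 in KO TFH libraries. KO non-TFH replicate 1, the library highest in both Cd69 and Klf2 among non-TFH libraries, was also the highest in these genes. Of the 12 genes, 8 fell and 4 did not pass in KO against WT TFH cells, where 15% of all features fell. In non-TFH cells 4 rose and 8 did not pass, where 11.8% of all features rose. Without KO non-TFH replicate 1 or any other single library, Cd69 rose in KO non-TFH cells, with log2 changes of 1.20 to 1.80. With KO non-TFH replicate 1 left out, the immediate early sums of 1019 and 767 that remain are still above every WT non-TFH sum. The part of these genes in the Cd69 and Klf2 results was not tested.

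**Figure D3:**
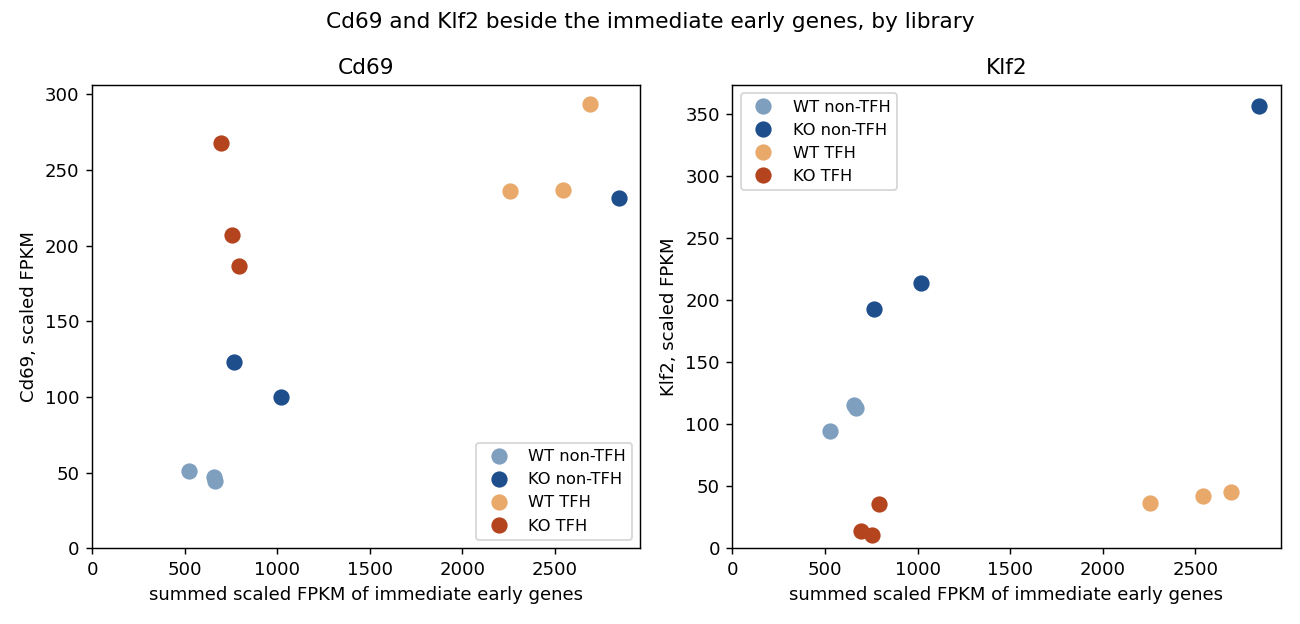
Scaled FPKM of Cd69 (left) and Klf2 (right) against the summed scaled FPKM of 11 immediate early genes, 1 point per library, coloured by group. KO non-TFH replicate 1 lies farthest right at 2844, with Cd69 at 231 and Klf2 at 356, and KO TFH libraries hold Cd69 at 187 to 268 with sums of 696 to 791.

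Selplg (chromosome 5, 113817798 to 113832528) was joined with its neighbour Coro1c in 1 library of each of 3 groups, which leaves n = 2 there. It stood at 235 and 228 in WT non-TFH, at 205 and 267 in KO non-TFH, at 165 and 187 in WT TFH and at 120, 134 and 127 in KO TFH libraries. In TFH cells the mean fell from 176 ± 15.5 (SD, n = 2) to 127 ± 7.34 (n = 3) without overlap, a log2 change of -0.47 ± 0.13 (limma adjusted p = 0.022). The call was lost in 6 of 23 alternatives (adjusted p 0.011 to 0.17), including the omission of WT TFH replicate 3, KO TFH replicate 1 or KO TFH replicate 3. It was also lost when Selplg and Coro1c were summed so that all 12 libraries had a value (-0.27 ± 0.12, adjusted p = 0.13), a setting chosen after the values were seen. The change in non-TFH cells, 0.02 ± 0.14, did not pass (limma adjusted p = 0.96). TFH cells had less Selplg, with changes against non-TFH cells of -0.39 ± 0.14 log2 in WT mice (limma adjusted p = 0.033) and -0.88 ± 0.13 log2 in KO mice (0.00026). The WT difference vanished without scaling between libraries (adjusted p = 1), and unscaled values of the median gene were 0.36 log2 higher in TFH cells in WT mice and 0.26 log2 higher in KO mice.

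Across cell types, all 8 genes passed in WT mice, where 67.5% of all features did (35.3% higher and 32.1% lower). S1pr2, Gpr183 and Cd69 were higher in TFH cells, and S1pr1, the joint S1pr4 entry, Ccr7, Klf2 and Selplg were lower. The median was -0.88, against 0.05 over all features. In KO mice 2 were higher, 5 lower and 1 (Cd69) did not pass, where 67% of all features passed (33.5% higher and 33.6% lower), and the median was -1.36 against 0.02. The genotype change differed between cell types for 4 of the 8 (S1pr2, Ccr7, Cd69 and Klf2), where 17.4% of all features did (6.83% higher and 10.5% lower). These comparisons share libraries, so their counts are not independent of each other.

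**Figure D4:**
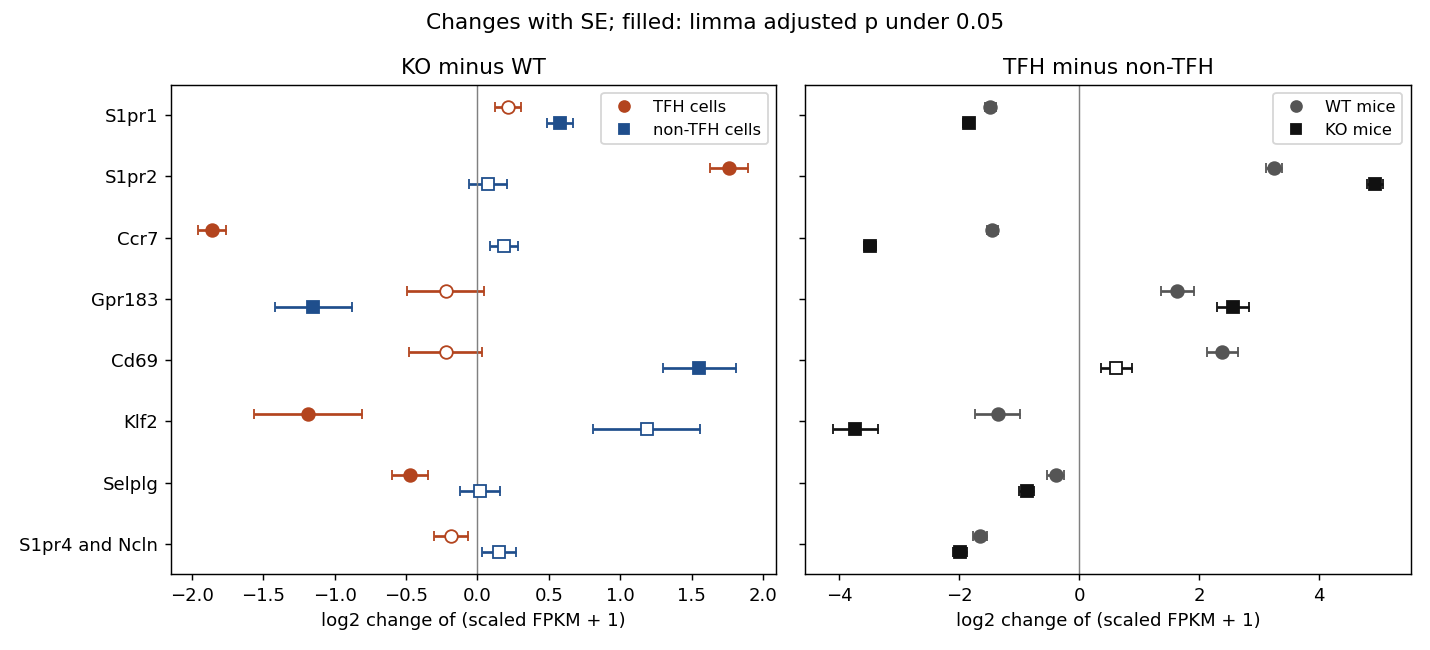
Log2 change of (scaled FPKM + 1) with its SE for each gene: KO minus WT in TFH and non-TFH cells (left) and TFH minus non-TFH in WT and KO mice (right). Filled points passed at a limma adjusted p under 0.05. In KO against WT, S1pr2 (1.76) and Ccr7 (-1.86) lie farthest from 0 in TFH cells and Cd69 (1.55), Klf2 (1.18, not passed) and Gpr183 (-1.15) in non-TFH cells.

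Because FPKM is per length, the 7 genes with their own entries can be ordered by level within a group. By group mean the order was Selplg, Ccr7, S1pr1, Klf2, Cd69, Gpr183 and S1pr2 in WT non-TFH cells, where only Ccr7 and S1pr1 overlapped as neighbours. In KO non-TFH cells it was S1pr1, Klf2, Ccr7, Selplg, Cd69, Gpr183 and S1pr2, and each of the first 5 overlapped with the next among those 5. In WT TFH cells it was Cd69, Selplg, Gpr183, Ccr7, S1pr1, Klf2 and S1pr2, with Gpr183 overlapping Ccr7 and Ccr7 overlapping S1pr1. In KO TFH cells it was Cd69, Selplg, S1pr2, Gpr183, S1pr1, Ccr7 and Klf2. There S1pr2 overlapped Gpr183, Gpr183 overlapped S1pr1, and Ccr7 overlapped Klf2. S1pr2 was last in 3 groups and stood above both Ccr7 and Klf2 in every KO TFH library.

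For 6 of the genes, those with their own value in every library, the 3 features most alike over the 12 libraries were taken from 7395 features by Pearson r on the log2 scale. The libraries share 4 groups, so these values describe group patterns and carry no test. S1pr1 was most like Sbk1, Cmah and Dapk3 (r = 0.99 each). S1pr2 was most like Pgam1 (0.998), Ppia (0.998) and the joint entry of Nutf2 and Nutf2-ps1 (0.997). Pgam1, a glycolytic enzyme gene, had group means of 27.4 and 29.4 in WT and KO non-TFH and 115 and 216 in WT and KO TFH libraries. Ccr7 was most like Slc12a7 (0.988), Rcsd1 (0.986) and Arid4b (0.986). Gpr183 was most like Poglut1 (0.970), Msra (0.969) and Smpdl3a (0.962). Cd69 was most like Trib1 (0.961), Nfkbia (0.958), the NF-kappa-B inhibitor, and Sla (0.953). Klf2 was most like Capn2 (0.983), Irf2bpl (0.968) and Mical1 (0.962).

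Genes that make, export and break down S1P were tested for 8 members. In KO against WT TFH cells 1 rose, 3 fell and 4 did not pass, where 30.7% of all features passed. In non-TFH cells 1 rose and 7 did not pass, where 20.3% of all features passed. Sgpl1, the S1P lyase that destroys S1P, stood at 53.6, 59.2 and 51.7 in WT TFH and at 33.7, 31.4 and 26.3 in KO TFH libraries (log2 change -0.83 ± 0.11). Both groups were above the WT non-TFH libraries, at 18.4, 18.7 and 16.5. Plpp3, a lipid phosphatase of the cell surface, stood at 2.76, 3.46 and 4.62 in WT TFH and at 0.479, 0 and 0.200 in KO TFH libraries. It reached 1 FPKM in WT TFH libraries alone and was tested only through that group, so its place among the 3 that fell carries no weight. Abcc1, a transporter, fell by 0.42 log2. Sgpp2, an S1P phosphatase, rose from 1.83, 1.72 and 2.0 to 5.02, 7.64 and 5.17 (1.26 ± 0.17) and was listed at 0 in all 6 non-TFH libraries. The related phosphatase Sgpp1 was lower in WT TFH than in WT non-TFH cells (-2.16 ± 0.23). Sphk1, a sphingosine kinase, and Spns2, an S1P exporter, were not tested, with highest values of 0.573 and 0.177.

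Of 12 tested regulators that end G protein receptor signals, 7 fell, 1 rose and 4 did not pass in KO against WT TFH cells, where 15% of all features fell and 15.6% rose. In non-TFH cells 2 fell, 2 rose and 8 did not pass, where 8.56% of all features fell and 11.8% rose. Rgs1, which dampens migration to chemokines, stood at 254, 310 and 215 in WT TFH and at 53.1, 49.6 and 53.3 in KO TFH libraries (-2.28 ± 0.29). Rgs2 fell from 94.9, 104 and 96.3 to 18.4, 16.7 and 13 (-2.56 ± 0.62). Arrb1, an arrestin that uncouples receptors, fell in both KO cell types (-1.63 ± 0.17 in TFH and -2.03 ± 0.17 in non-TFH cells). Rgs10 rose in both, by 1.11 ± 0.10 and 0.85 ± 0.10. Grk2, the kinase linked to S1PR1 desensitization and listed under an older symbol, did not pass with genotype but was lower in TFH cells (-3.07 ± 0.14 in WT mice). In KO against WT TFH cells, 11 of 13 macrophage markers fell and 2, Itgam and Lyz2, rose, and 8 of 12 immediate early genes fell. Their part in these changes was not tested.

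Of 11 tested genes of G proteins and their downstream migration pathway, 1 rose, 3 fell and 7 did not pass in KO against WT TFH cells, where 30.7% of all features passed. In non-TFH cells 3 rose, 1 fell and 7 did not pass, where 20.3% of all features passed. Gna13, the G protein through which S1PR2 acts, stood at 30.6 to 41.1 in WT TFH and 33.4 to 38.9 in KO TFH libraries and did not pass in any comparison, nor did Gnai2, which couples S1PR1 and CCR7. Dock2, an activator of Rac in migrating lymphocytes, fell in KO TFH cells (-0.51 ± 0.11). Gna15 fell in TFH (-0.73 ± 0.20) and rose in non-TFH cells (1.77 ± 0.20), and Gnaq did likewise at -0.55 ± 0.15 and 0.55 ± 0.15. For TFH against non-TFH cells of WT mice, 6 of the 11 were higher, 2 were lower and 3 did not pass. Of all features, 35.3% were higher and 32.1% lower there. The 2 lower genes were Rac1 (-2.41 ± 0.14) and Rap1b (-1.69 ± 0.22). Gna15 (2.77 ± 0.20) and Rac2 (1.74 ± 0.33) were among the 6 higher genes. Arhgef1, the exchange factor below Gna13, was joined with the B cell gene Cd79a and is given no direction.

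Among chemokines and receptors of the T zone and follicle, 3 were tested, Ccr7 included. Cxcr4 rose in KO non-TFH cells from 32.3, 35.0 and 20.9 to 90.6, 44.4 and 112 (1.39 ± 0.30) and did not pass in TFH cells. Cxcr5, a marker of the sort, stood at 125 to 252 in TFH and 0 to 12.2 in non-TFH libraries. The chemokine genes Ccl19, Cxcl12 and Cxcl13 were at most 1.16. The enzyme genes Ch25h and Cyp7b1, which make and process the GPR183 ligand, were at most 0.440.

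Of 13 tested genes of PSGL-1, its glycosylation and the selectins, 1 rose, 3 fell and 9 did not pass in KO TFH cells, a share near the 30.7% of all features. In KO non-TFH cells 3 rose, 4 fell and 6 did not pass, beside 20.3% of all features that passed. Sele, which encodes E-selectin, is among those 4 but reached 1 FPKM in WT non-TFH libraries alone, so its call carries no weight. The sialyltransferases St3gal4 and St3gal6 fell in KO TFH cells by 2.29 and 1.31 log2, while St3gal3 rose (0.91 ± 0.24). Tpst2, a tyrosine sulfotransferase, rose in KO non-TFH cells (1.04 ± 0.11). Gcnt1, which builds the core of PSGL-1 glycans, was higher in TFH than in non-TFH cells of WT mice (1.75 ± 0.30).

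Of 15 tested genes of the KLF2 and FOXO1 axis, which holds Klf2 and S1pr1 too, 13 were lower and 2 higher in WT TFH than in WT non-TFH cells, where 32.1% of all features were lower and 35.3% higher. Klf13 (-3.97 ± 0.10) and Foxo3 (-3.34 ± 0.16) were among the lower genes, and Klf6 and Klf4 were the 2 higher genes. With genotype, 2 rose, 5 fell and 8 did not pass in TFH cells, beside 30.7% of all features that passed. In non-TFH cells 6 rose, 2 fell and 7 did not pass, beside 20.3% of all features. Foxo1, a factor of quiescent T cells upstream of Klf2, stood at 14.3, 14.3 and 15.5 in WT TFH and at 6.22, 9.76 and 6.79 in KO TFH libraries (-0.89 ± 0.15). Il7r, a FOXO1 target, fell in both KO cell types (-1.59 ± 0.23 and -1.58 ± 0.23). Klf4 fell in TFH (-2.44 ± 0.73) and rose in non-TFH cells (2.42 ± 0.73), where KO replicate 1 stood at 38.8 against 3.42 and 3.16 in the others. Itgb7, an integrin subunit that KLF2 controls, rose in KO non-TFH cells from 335, 339 and 335 to 588, 567 and 623 (0.82 ± 0.09).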

How the data were processed

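The authors' deposited values are FPKM per gene, 1 Cufflinks gene tracking table per library, with 95% bounds per the file headers. Per the submitters' processing notes, the tools were Cufflinks, Cuffdiff, TopHat, TopHat2, Bowtie, Bowtie2, cutadapt and FastQC, and the build was mm10. The sources used here do not give their versions or settings. The tables hold no counts, so the depth is unknown, and counting error is known only through the authors' bounds (median half-widths of 4.15% for Selplg to 16.3% for S1pr2). Each table also lists unnamed loci (6803 to 8549 in non-TFH, 7855 to 25171 in TFH libraries).

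Symbols with a separate entry in 2 or more libraries of each group were kept as single features (22451). Other symbols sharing an entry were summed (796). FPKM was scaled by median ratios over 7162 features that reached 1 FPKM in all libraries (scale factors 0.857 to 1.14). Features reaching 1 FPKM in 3 or more libraries (11112) were tested as log2(scaled FPKM + 1) with limma 3.58.1 in R 4.3.3 (4 group means, 12 libraries, variance trend, robust moderation, Benjamini-Hochberg over all features, threshold 0.05). A missing value stayed missing. Exact two-sided permutation tests over libraries were run for single genes. Scripts were tested on simulated data. Python 3.11.15, pandas 2.3.3, numpy 2.4.6 and matplotlib 3.10.9 were used.

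The genes and lists were chosen with earlier results of these data known. Named genes are the 8 genes, Ets1, the up to 3 called genes of each pathway list with the largest changes per direction and comparison (not all are printed), the most alike features, and markers. Other genes named from the lists (Gna13, Gnai2, S1pr3, S1pr5, Sphk1, Spns2, Arhgef1 and those at or near 0) were named for their roles.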

Additional observations from a re-analysis of the deposited data

Results flagged for a closer look

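For 4 of the 8 genes the change of KO against WT was not the same in both cell types, by limma's test of the difference between those changes (TFH minus non-TFH). Of all features tested, 17.4% passed this test (6.83% higher and 10.5% lower). S1pr2 differed by 1.69 log2 (SE 0.19, adjusted p = 0.00013), having risen in TFH cells in 3 of 3 KO libraries above every WT library and not passed in non-TFH cells. Ccr7 differed by -2.04 (SE 0.14, adjusted p = 3e-06), having fallen in TFH cells, with all 3 KO libraries below WT. Cd69 differed by -1.77 (SE 0.36, adjusted p = 0.0062), having risen in non-TFH cells, with all 3 KO libraries above WT. Klf2 differed by -2.37 (SE 0.53, adjusted p = 0.012), with all 3 KO TFH libraries below WT TFH and all 3 KO non-TFH libraries above WT non-TFH. The Klf2 change within non-TFH cells did not pass (limma adjusted p = 0.051), and its call within TFH cells was lost in 12 of 23 alternatives. The 4 differences kept the direction and the call when any single library was left out, with ranges of 1.60 to 1.78, -2.12 to -1.98, -2.02 to -1.42 and -2.87 to -2.03. Macrophage markers moved the same way as Ccr7, Cd69 and Klf2 in this test (10 of 13 lower and 1 higher), as did immediate early genes (10 of 12 lower), and their part was not tested.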

How the results depend on the processing

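Of 40 gene-by-comparison results, 29 kept their direction and their side of the threshold in all of the alternatives run (24 kinds in all). The calls of S1pr2 and Ccr7 in TFH cells and of S1pr1, Gpr183 and Cd69 in non-TFH cells held in each. The count of the 8 genes that passed in KO against WT TFH cells was 4 and became 2 with array weights. Leaving out 1 library gave 2 to 4 there (2 without WT TFH replicate 3 or KO TFH replicate 3), 3 to 4 in non-TFH cells, 7 to 8 for TFH against non-TFH cells in either genotype, and 4 to 5 in the difference. Changes that did not pass turned sign in some settings. S1pr2 in KO against WT non-TFH cells was -0.080 with quantile normalization and ran from -0.015 to 0.13 without 1 library. Selplg there was -0.10 with quantile normalization, -0.025 with the replicate number as a block and -0.067 when summed with Coro1c, and ran from -0.17 to 0.21 without 1 library. Gpr183 in KO against WT TFH cells ran from -0.44 to 0.0046. Selplg in TFH against non-TFH cells of WT mice lost its call in 9 of 24 settings, including the omission of WT non-TFH replicate 1 or 2 or WT TFH replicate 1. The S1pr1 difference passed without KO TFH replicate 2 (-0.44, adjusted p = 0.032) and the Selplg difference without KO non-TFH replicate 1 (-0.68, adjusted p = 0.034). Over all features, 3408 passed in KO against WT TFH cells, against 2161 with only those groups fitted and 2221 with array weights, and 2257 in non-TFH cells, against 3895 and 4159. The cause of these shifts was not tested. Same-numbered libraries correlated at -0.03 to 0.06 in their deviations from the group means. Such low values cannot show whether the numbers pair the libraries, and the main fit used no pairing. With the replicate number as a block, 3 of the 8 genes passed in KO against WT TFH cells (Klf2 at adjusted p = 0.059). Depth is unknown, which limits S1pr2 in non-TFH cells most.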

Other observations

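Other marker lists moved with the groups as well. The summed level of 4 Treg markers was 426 to 525 in WT TFH, 242 to 282 in KO TFH, 55.7 to 72.8 in WT non-TFH and 108 to 148 in KO non-TFH libraries. These were Il2ra, Ikzf2, Ctla4 and Tnfrsf18. Foxp3 shared its entry with another gene and is not in the sum, which therefore does not measure Treg cells. The sum of CD8 and NK cell markers was 117 to 138 in KO non-TFH and 43.7 to 65.0 in KO TFH libraries, against 14.0 to 19.7 and 14.3 to 18.8 in the WT libraries of each cell type. The sum of 7 dendritic cell markers was 23.9 to 43.9 in WT TFH and 6.66 to 17.3 in KO TFH libraries and at most 4.26 in non-TFH libraries. The sum of 6 neutrophil markers was 15.8, 16.6 and 123 in WT non-TFH and 40.8 to 52.7 in KO non-TFH libraries. In TFH libraries it was 2.29 to 16.8 in WT and 2.56 to 11.4 in KO. The part of these markers in the levels of the 8 genes was not tested.

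Over the 12 libraries, S1pr2 and Ccr7 had a Pearson r of -0.98, S1pr1 and Gpr183 of -0.96 and Ccr7 and Klf2 of 0.92 on the log2 scale, as descriptions over 4 groups that share cell type and genotype. Cd69 and Klf2 had an r of -0.47.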
